A study of Homo sapiens with 8 samples.

Results

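Clone 1, a line expanded from a KCL-22 cell sorted by FACS, which resists the BCR-ABL inhibitor GNF-2, was compared with a GNF-2-resistant population, the kind of culture from which it was isolated. Of 31402 entries in the expression table, 9601 had an FPKM (fragments counted on a gene, normalised for transcript length and library size) of at least 5 in the higher of these 2 libraries, and these are the genes described. KCL-22 is an established human cell line from chronic myeloid leukemia at the blast crisis stage. Its growth depends on the fusion kinase BCR-ABL, and its cells had been tagged with the ClonTracer barcode library. The study's 8 libraries are 4 bulk populations and 4 clones, with 1 library each. The GNF-2 population had spent 21 days in GNF-2 at 2.5 µM. Clone 1 resists 2.5 µM GNF-2 and had not met a catalytic inhibitor, and the same holds for Clones 2 and 4 of the same origin, of which Clone 4 also resists imatinib and nilotinib. For comparison, Clone 3 came from a population resistant to 2.5 µM imatinib and resists imatinib and nilotinib but had not met an allosteric inhibitor. The imatinib population had been treated for 27 days, the nilotinib population with 0.3 µM for 27 days and the vehicle population with 0.1% DMSO for 7 days. The labels do not state that the sequenced GNF-2 population was the very culture that gave Clone 1, nor whether the clones were kept in drug before RNA was taken.

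GNF-2 binds the myristate pocket of ABL, away from the ATP site where imatinib and nilotinib bind, and is called an allosteric inhibitor for that reason. BCR-ABL drives growth of chronic myeloid leukemia cells through STAT5, RAS-ERK and PI3K signalling. Type I interferons act through the receptor chains IFNAR1 and IFNAR2 and the kinases JAK1 and TYK2, which activate a complex that includes STAT2 and IRF9. That complex binds the interferon-stimulated response element in the promoters of antiviral genes, and interferon alpha was a standard treatment of this leukemia before kinase inhibitors.

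A difference is given as log2(FPKM + 1) in Clone 1 minus the GNF-2 population. This scale understates the change of low genes. A gene is called higher or lower when the difference is at least 2-fold. With 1 library a side there is no replicate check and no test, so every value compares 2 libraries. Of the 9601 genes, 999 were at least 2-fold apart (10.4%), with 198 higher in Clone 1 (2.06%) and 801 lower (8.34%). Among all tested genes, 5674 lay below the GNF-2 population and 3927 above it. The median difference of all tested genes was -0.10. Rescaling each library by its median ratio to the mean of all 8 moved that median to 0.11 and the called genes to 341 higher and 582 lower, so the higher share of calls went from 19.8% to 36.9%. Quantile normalization gave 313 higher and 550 lower. At least 4-fold differences numbered 65 higher and 244 lower. Just past the threshold lay TMEM147 (116 against 57.4 FPKM) and C7orf50 (16.2 against 33.4), and just short of it NDUFC2 (55.8 against 27.5) and AGRN (10.3 against 21.6). Among all 28 pairs of the 8 libraries the share of genes at least 2-fold apart ran from 2.36% (nilotinib against GNF-2 population) to 21.5% (vehicle population against Clone 4).

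**Figure D1:**
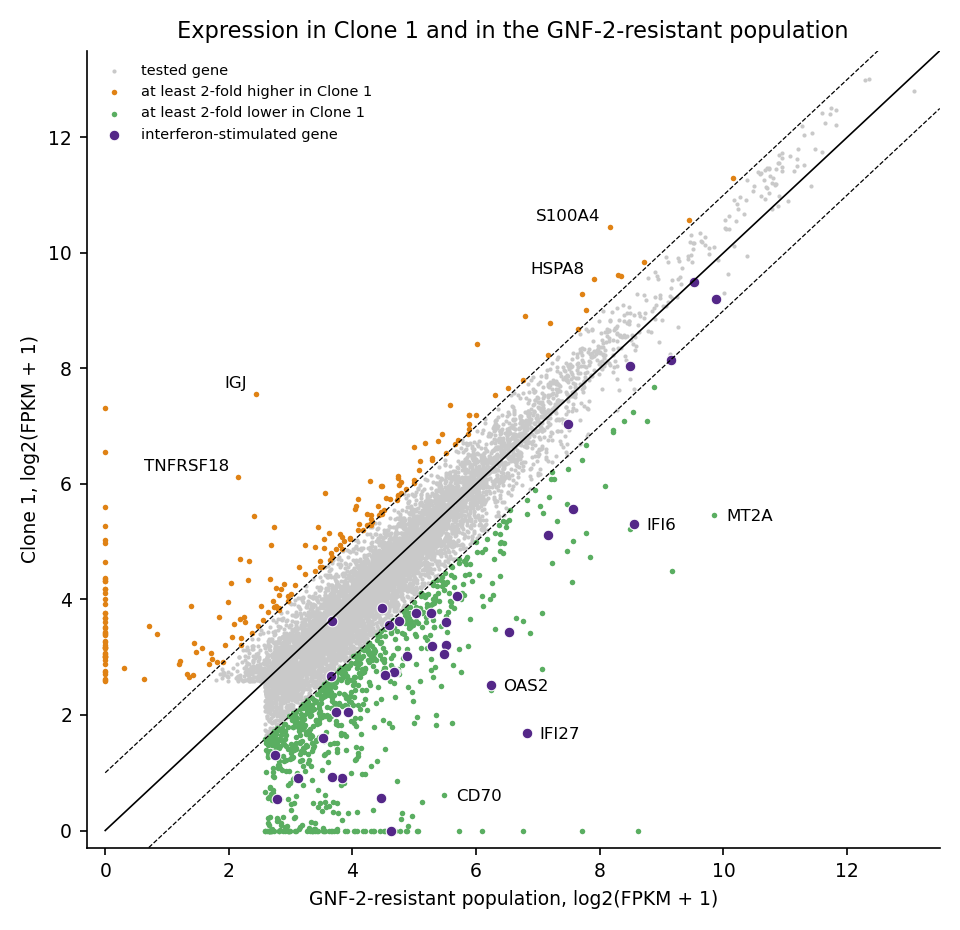
Expression of each tested gene in the GNF-2-resistant population (x axis) and Clone 1 (y axis), both as log2(FPKM + 1), with 1 point per gene, the solid line at equality and dashed lines at 2-fold. All 37 interferon-stimulated genes lie below the solid line and 29 lie at or below the lower dashed line, while points on either axis are genes listed at 0 in 1 library.

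Several facts about the libraries bear on these counts. Depth is not given in the table and was estimated roughly from the smallest steps of 680 intronless genes as 38000000 fragments for Clone 1 and 18400000 for the GNF-2 population. In the quartile of genes with the lowest mean FPKM, 17.5% were at least 2-fold lower and 2.92% higher, against 3.5% and 2.25% in the highest quartile. In the quartile with the shortest transcripts 4.92% were higher, against 0.855% in the longest quartile. Removing the trend on transcript length and GC content left 215 higher and 684 lower. Of the 999 called genes, 113 were listed at exactly 0 in 1 of the 2 libraries, and such a 0 can be a failed estimate. ABL1, the kinase part of the fusion, stood at 65.3 FPKM in Clone 1 and 81.7 in the GNF-2 population, and BCR at 72.1 and 85.1. Of the myeloid markers, CEBPA was 24.9 and 19.5, SPI1 14.7 and 12, and ANPEP 23.8 and 32. CD33 was 1.63 and 3.07 and CD34 0.573 and 3.08, while KIT was at 0 and MPO was 0.0488 and 0.403. Markers of other cell types were mixed. HBB (erythroid), MS4A1 (B cell), PPBP (platelet), FCGR3A (monocyte) and DCN (fibroblast) were at 0 in both libraries. Of the same types, CD79A (B cell) was 98.9 and 30.8, GP9 (platelet) 55.6 and 33.6, CD68 (macrophage) 9.41 and 37.2, and CSF1R (monocyte) 5.52 and 6. The T and natural killer cell genes CD3D (12.4 and 10.6), NCAM1 (53.5 and 64.8) and NKG7 (211 and 193) were also expressed. So were the epithelial keratins KRT8 (22.8 and 11.2) and KRT18 (74.7 and 32.6). Other markers of these types were near 0, with CD3E at 0.109 and 0.172, CD2 at 0.0148 and 0 and KLRD1 at 0 and 0.0175. EPCAM was 0.0458 and 0.0873, CDH1 0.031 and 0, and CD3G was at 0 in both. The part of such lineage genes in the results was not tested.

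Interferon-stimulated genes were the group with the largest shift among the 49 lists with at least 3 tested members, except with an FPKM floor of 20, where the metallothionein and zinc transporter list had a median of -2.28 and the interferon list -1.89. All 37 tested members were lower in Clone 1 than in the GNF-2 population, 29 of them at least 2-fold, against 8.34% of all tested genes. None was at least 2-fold higher, against 2.06%. Their median difference was -1.89, against -0.10 over all tested genes. The median FPKM of the 37 was 8.12 in Clone 1 and 28.5 in the GNF-2 population. It was 21.6 in the vehicle, 24.0 in the imatinib and 18.6 in the nilotinib population, and 20.2, 20.3 and 54.8 in Clones 2, 3 and 4. Clone 1 was thus the lowest of the 8 libraries by this median, and Clone 4, sorted from GNF-2-resistant cells as well, was the highest. For 33 of the 37 genes Clone 1 held the lowest of the 8 values, a share that was not computed over all tested genes. At least 2-fold below all other 7 libraries were 13 of the 37, against 0.49% of all tested genes. In bulk RNA, fewer cells that express a gene and less of its RNA per cell cannot be told apart. Under the median-ratio scaling 2 of the 37 genes lay above the GNF-2 population, and under quantile normalization 1 did.

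**Figure D2:**
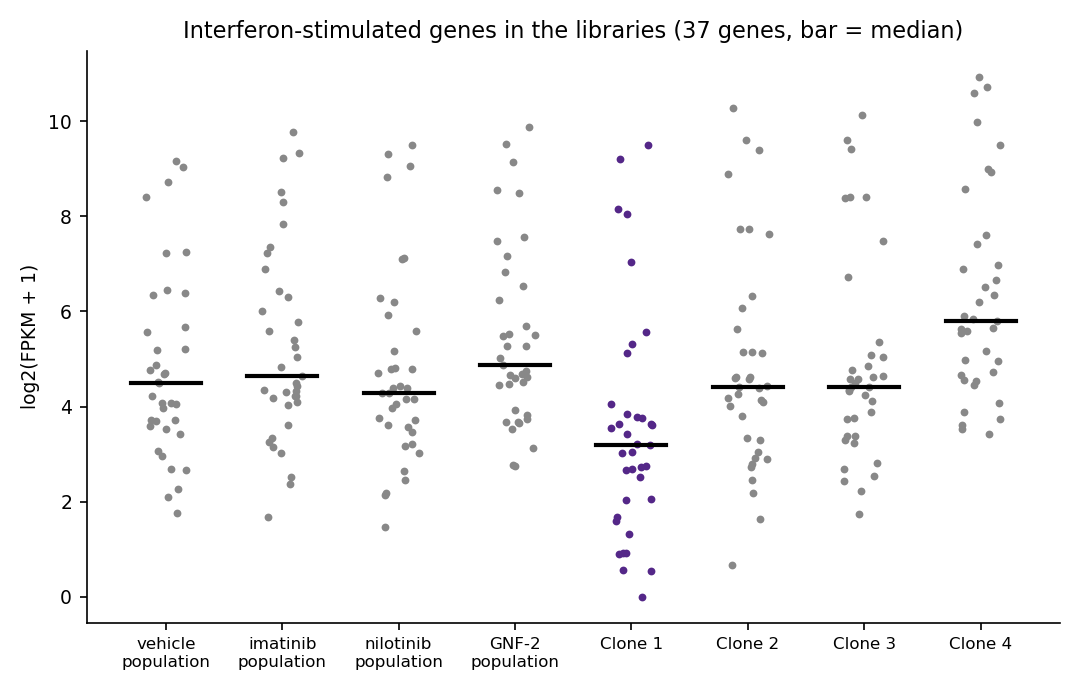
Levels of 37 interferon-stimulated genes as log2(FPKM + 1) in each of the 8 libraries, with 1 point per gene and a bar at the median FPKM of the 37. The Clone 1 bar, at 8.12 FPKM, is the lowest and the Clone 4 bar, at 54.8 FPKM, the highest.

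The sequences of 4 of these promoters are shown because they carry the letters that the complex with STAT2 and IRF9 is known to bind. They are the 250 bases before the transcript start in RefSeq on GRCh38.p14, read 5′ to 3′ along the gene's strand, with the letters GAAA, any 2 bases and GAAA again in capitals, on either strand. IFI27 lies on the plus strand (chr14:94110486-94110735), IFI6 on the minus strand (chr1:27672193-27672442), IFIT1 on the plus strand (chr10:89392373-89392622) and ISG15 on the plus strand (chr1:1013247-1013496).
IFI27: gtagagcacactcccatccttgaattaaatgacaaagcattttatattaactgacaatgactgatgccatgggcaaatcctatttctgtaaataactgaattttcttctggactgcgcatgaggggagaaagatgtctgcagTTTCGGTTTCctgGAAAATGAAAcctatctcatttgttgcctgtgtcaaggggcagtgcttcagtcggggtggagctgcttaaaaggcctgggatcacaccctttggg
IFI6: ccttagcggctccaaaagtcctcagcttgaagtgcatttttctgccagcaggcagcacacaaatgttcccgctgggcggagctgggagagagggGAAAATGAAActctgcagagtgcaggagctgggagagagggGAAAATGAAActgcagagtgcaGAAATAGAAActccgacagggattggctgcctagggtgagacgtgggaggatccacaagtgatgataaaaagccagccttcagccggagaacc
IFIT1: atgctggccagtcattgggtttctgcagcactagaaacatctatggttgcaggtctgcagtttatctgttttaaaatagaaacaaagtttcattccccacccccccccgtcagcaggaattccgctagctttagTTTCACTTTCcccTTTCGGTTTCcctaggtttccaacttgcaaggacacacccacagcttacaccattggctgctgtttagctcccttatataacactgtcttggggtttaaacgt
ISG15: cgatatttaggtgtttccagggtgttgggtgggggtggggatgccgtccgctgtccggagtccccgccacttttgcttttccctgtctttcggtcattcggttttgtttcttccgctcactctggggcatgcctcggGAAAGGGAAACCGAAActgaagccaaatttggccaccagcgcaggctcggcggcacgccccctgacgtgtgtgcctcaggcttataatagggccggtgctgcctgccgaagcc
The IFI27 promoter holds 2 such matches, that of IFI6 3, that of IFIT1 2 and that of ISG15 2, which overlap each other. The matches start between 93 and 156 bases before the transcript start. Of all 27305 RefSeq promoters of 300 bases (250 before the start and 50 after it), 3.65% hold these letters on either strand. Of the interferon list, 27 of the 37 tested genes had a promoter in the table, and 16 of the 27 held the letters. A promoter was found for only 69.5% of the called genes, so a comparison of called with other genes is void. A match is a description of the letters and shows no binding.

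IFI27, a mitochondrial interferon-induced protein (chr14:94577078-94583033, GRCh37), was 2.22 FPKM in Clone 1 and 113 in the GNF-2 population, a difference of -5.14. Its level in the other libraries was 82.5 (vehicle), 366 (imatinib), 12.6 (nilotinib), 197 (Clone 2), 18 (Clone 3) and 1957 (Clone 4). IFI27 therefore ranged widely among all libraries, with Clone 1 lowest and Clone 4 highest. IFI6, which restrains apoptosis (chr1:27992571-27998724), was 38.7 in Clone 1 and 373 in the GNF-2 population (-3.24), and between 136 and 1009 in the other 6. ISG15, the ubiquitin-like modifier (chr1:948846-949919), was 46.5 against 189, and between 66.5 and 379 in the other 6. IFI44L was 0.485 against 20.9 (-3.88) and IFI44 9.78 against 91.9 (-3.11). These genes were lower in Clone 1 than in each of the other 7 libraries.

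Genes of antiviral enzymes and RNA-binding proteins showed the same direction. OAS1, OAS3 and OAS2, neighbouring genes on chromosome 12 whose enzymes make the second messenger that activates RNase L, were 8.24, 7.30 and 4.72 FPKM in Clone 1. In the GNF-2 population they were 44.8, 43.6 and 74.6. OAS2 thus differed by -3.73, more than OAS1 (-2.31) and OAS3 (-2.43). The IFIT genes, which bind viral RNA, were lower together, with IFIT1 at 5.72 against 24.4, IFIT2 at 2.04 against 10.5 and IFIT3 at 5.67 against 24.7. DDX58, which encodes the RNA sensor RIG-I, was 3.13 against 12.3 (-1.69), and IFIH1, which encodes MDA5, 12.6 against 37.4 (-1.49). TRIM22, an antiviral ubiquitin ligase outside the list, was 0.967 against 16.9 (-3.18), and no lower than 9.15 in any other library. Other members differed by less than 2-fold. IFITM1 was 284 against 566 (-0.99), IFITM3 585 against 938 (-0.68) and BST2 130 against 178 (-0.45). LY6E (723 against 737) and the transcription factor IRF1 (11.4 against 11.7) were nearly equal.

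The signal transducers of the pathway divided. STAT2 was 8.12 FPKM in Clone 1 and 37.9 in the GNF-2 population (-2.09), and between 16.2 and 32.1 in the other 6 libraries. This gene is itself induced by interferon, and it was lowest in Clone 1. IRF7, which amplifies interferon production, was 11.3 against 44.4 (-1.89). IRF9 was listed at 0 in Clone 1 and between 12.5 and 27.6 in the other 7 libraries, a 0 that can be a failed estimate. The receptor chains differed less. IFNAR1 was 20 against 18.1, IFNAR2 30.4 against 34.6, and the interferon gamma receptor chain IFNGR2 55.7 against 55.9. Of the receptor kinases, JAK1 was 24.4 against 26.3 and TYK2 9.95 against 21.1 (-1.02). IFNB1, the gene of interferon beta, was 0.0605 and 0.23, below the FPKM of 5 that the rule asks for.

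Antigen presentation genes, many of them also induced by interferon, were lower by less. Of 13 tested MHC class I and II genes, 12 were below the GNF-2 population, as were 5674 of all 9601 tested genes. At least 2-fold lower were 3, against 8.34% of all tested genes, and the median was -0.53. The 3 were NLRC5, the transactivator of MHC class I (5.93 against 16.9), PSMB9, a subunit of the immunoproteasome (11.3 against 29.7), and HLA-E, a ligand of natural killer cell receptors (122 against 297). B2M, the light chain of MHC class I, was 792 against 1074 (-0.44). Clone 1 had the lowest HLA-B, HLA-C and B2M of the 8 libraries.

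Clones 2 and 4 were compared with the same GNF-2 population library, so their values share that control and are only set side by side. In Clone 2, 12 of 38 tested interferon-stimulated genes were at least 2-fold lower and none higher, with a median of -0.52, where 4.08% of all tested genes were higher and 7.88% lower. In Clone 4, 21 of 39 were at least 2-fold higher and 1 lower, with a median of 1.02, where 3.65% of all tested genes were higher and 7.94% lower. The Clone 3 pair has no library in common with the Clone 1 pair. There 6 of 37 were at least 2-fold lower and 1 higher, with a median of -0.17, where 7.19% of all tested genes were lower and 3.93% higher. Against the vehicle population, 35 of the 37 genes were lower in Clone 1, with a median of -1.22, and the GNF-2 population itself stood above the vehicle population for 33 of 37, with a median of 0.70.

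Entries that lie next to each other and were called the same way were found in 19 runs of at least 3 neighbouring tested entries. Of the runs 18 were lower and 1 higher, with 62 entries in all, where 8.34% of all tested genes were lower and 2.06% higher. Some entries are transcripts that lie inside another entry of the run, as in MALAT1 and SLC25A37, so not all are separate genes. Several runs hold interferon-induced families. GBP2, GBP4 and GBP5, guanylate-binding proteins on chromosome 1 (chr1:89571842-89738544, GRCh37), were 15.7, 1.42 and 7.91 FPKM in Clone 1 and 50.8, 5.19 and 35.9 in the GNF-2 population. The run of 5 on chromosome 3 (chr3:122246759-122880953) took in PARP9, DTX3L, PARP15, PARP14 and PDIA5, with differences from -1.86 (PARP9) to -1.16 (PDIA5). SAMD9 and SAMD9L, antiviral and growth-restraining neighbours on chromosome 7, were 1.49 and 0.87 against 5.74 and 13.2, beside GNG11 at 11.3 against 108. SP110, SP140L and SP100, nuclear body genes on chromosome 2, differed by -1.54, -1.22 and -1.28. The run that was higher centred on PCDH10, a protocadherin (104 against 35.2), and its other entries carry a transcript identifier only. No whole chromosome stood apart, with chromosome medians from -0.17 (chromosome 21) to -0.05 (chromosome 8).

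Genes at least 2-fold below all other 7 libraries numbered 47 in Clone 1 (0.49% of those tested). Of the 47, 13 were interferon-stimulated genes, a list that makes up 37 of the 9601 tested genes. Among the others was CD70, the ligand of CD27, at 0.536 FPKM in Clone 1 and 43.6 in the GNF-2 population (-4.86). CD70 was 4.65 in Clone 2 and between 28.1 and 46.3 in the other 5 libraries. PTPRU, a receptor tyrosine phosphatase, was 0.401 against 33.8 (-4.64), and between 4.74 and 49.4 in the other 6. WBP5 was 0.331 against 10.9 (-3.15) and GNG11, a G protein gamma subunit, 11.3 against 108 (-3.14). TAL1, a transcription factor of blood stem cells and the erythroid line, was listed at 0 in Clone 1 and between 16.1 and 31.9 in the other 7 libraries, and this 0 too can be a failed estimate.

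Genes at least 2-fold above all other 7 libraries numbered 20 (0.208%). The largest such difference from the GNF-2 population among named genes was that of IGJ, the joining chain of secreted immunoglobulins (chr4:71521257-71532348, GRCh37), at 187 FPKM in Clone 1 and 4.45 in the GNF-2 population (5.11). IGJ was 11.9 (vehicle), 15.8 (imatinib), 48.5 (nilotinib), 19.3 (Clone 2), 63.0 (Clone 3) and 0.569 (Clone 4). PRSS57, a serine protease of neutrophil granules, was 344 against 63.7 (2.41), and no higher than 149 elsewhere. HPGD, which inactivates prostaglandins, was 13.8 against 1.63 (2.49), and no higher than 3.12 elsewhere. ASS1, the argininosuccinate synthase of arginine synthesis, was 626 against 209 (1.58), and no higher than 270 elsewhere. BCL2, the survival gene, was 64.6 against 26.4 (1.26), and lay between 5.10 and 26.4 in the other 7 libraries. C1orf186 (43.8 against 17.8) and FEV (14.5 against 2.96) also stood at least 2-fold above all others. TDRD9 (69.3 against 25.6) stood above the range of all others by less than 2-fold, with 35.5 in Clone 2.

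Other genes high in Clone 1 were shared with some of the clones. TNFRSF18, the receptor GITR, was 68.7 FPKM against 3.44 (3.97), and 82.0 in Clone 2, but 1.56 in Clone 4. S100A4, a calcium-binding protein linked to motility, was 1392 against 286 (2.28), and 1294, 754 and 1304 in Clones 2, 3 and 4. IGFBP7, an insulin-like growth factor binding protein, was 477 against 110 (2.11), and 558 in Clone 2, but was listed at 0 in Clone 3. SP7, the osteoblast factor osterix, was 29.6 against 5.43 (2.25), and 114 in Clone 2. PCOLCE, an enhancer of procollagen processing, was 24.9 against 3.52 (2.52), and 381 in Clone 2. TFRC, the transferrin receptor, was 107 against 40.7 (1.37), and higher than the GNF-2 population in all 4 clones.

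**Figure D3:**
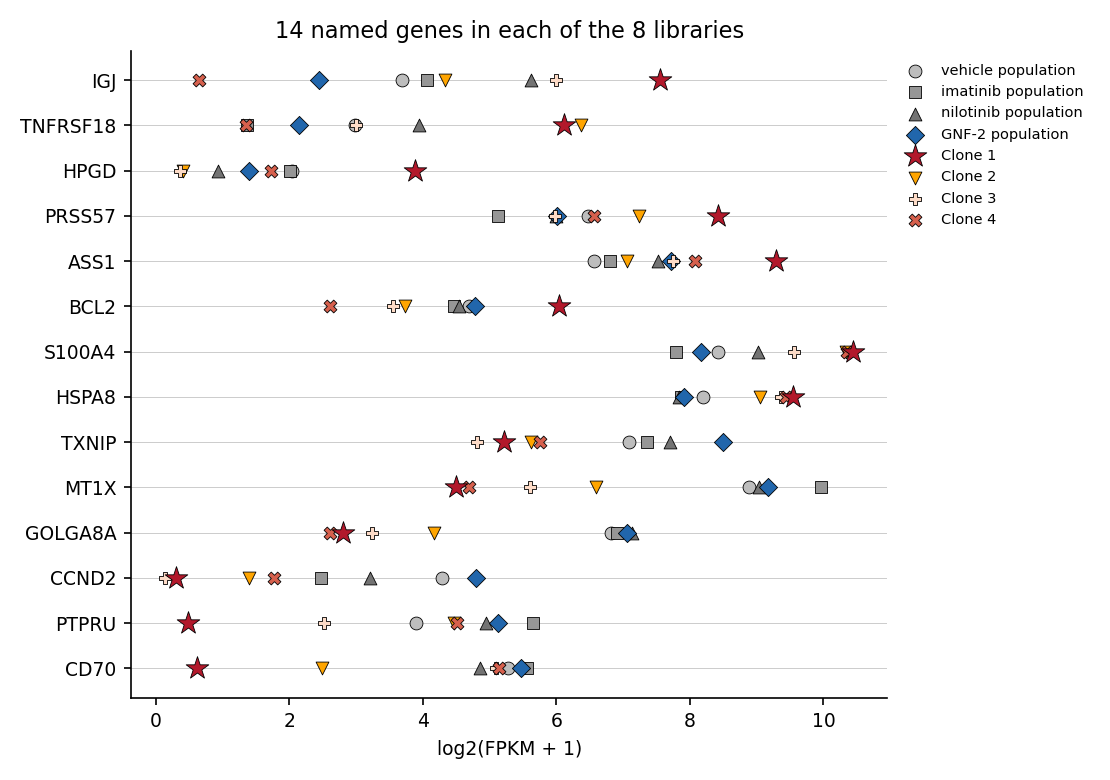
Levels of 14 named genes as log2(FPKM + 1) in each library, with 1 marker per library (star, Clone 1; diamond, GNF-2-resistant population). Clone 1 lies at the right end for IGJ, HPGD, PRSS57, ASS1 and BCL2 and at the left end for CD70 and PTPRU, whereas for TXNIP, MT1X and GOLGA8A all 4 clones lie left of all 4 populations.

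A large share of what was lower in Clone 1 was lower in the other clones as well. Of the 801 genes called lower, 426 had all 4 clones below all 4 populations (53.2%), and 1513 of the tested genes did (15.8%). Of the 198 called higher, 46 had all 4 clones above all 4 populations (23.2%), and 8.35% of the tested genes did. Calling a gene from Clone 1 and the GNF-2 population favours such a pattern, so these shares are descriptions. Only 2 of the 37 interferon-stimulated genes had all 4 clones below all 4 populations.

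Metallothioneins, which bind zinc and copper, were among the most abundant genes lower in the clones. MT2A was 43.1 FPKM in Clone 1 and 917 in the GNF-2 population (-4.38), between 748 and 1657 in the other populations, and 179, 108 and 59.7 in Clones 2, 3 and 4. MT1X was 21.5 against 576 (-4.68). TXNIP, the glucose-regulated inhibitor of thioredoxin, was 36.3 against 359 (-3.27). With ARRDC4 (3.28 against 16.3), GADD45A (11.9 against 35.4), KLF2 (6.97 against 16.6) and ARRDC3 (4.96 against 11.3), it made 5 of 13 tested FOXO targets at least 2-fold lower, against 8.34% of all tested genes, and none was higher, against 2.06%. The median of that list was -0.32, and under the median-ratio scaling or quantile normalization 3 of the 13 were at least 2-fold lower, against 6.13% and 5.79% of all tested genes.

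Several other transcripts were low in every clone. GOLGA8A, of the golgin family, was 5.97 FPKM against 132 (-4.26) and GOLGA8B 3.01 against 39.7. LENG8 was 18.7 against 187 (-3.25), OGT, the O-GlcNAc transferase, 61.3 against 270.4 (-2.12), and SRSF5, a splicing factor, 84.3 against 208 (-1.29). The long noncoding RNAs NEAT1 and MALAT1 were 3.72 and 16.9 against 30.5 and 43.9. Each of these 7 was lower in all 4 clones than in all 4 populations, and GOLGA8B, LENG8, OGT and SRSF5 were named after their values were seen. Short noncoding RNAs differed both ways. RMRP, the RNA of RNase MRP, was 42.8 against 4.30, and RPPH1, the RNA of RNase P, 9.54 against 0.78. Of 34 tested small nucleolar RNAs 21 were at least 2-fold higher, against 2.06% of all tested genes, and 7 lower, against 8.34%. By the same rule, of 4 tested microRNA entries 1 was higher and 3 lower. Short transcripts were more often higher than long ones in these libraries, as given above, and the part of transcript length in these values was not tested.

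Cytosolic ribosomal protein genes were all higher in Clone 1, as were 3927 of all 9601 tested genes. None reached 2-fold, against 2.06% of all tested genes. The 40 tested genes lay between 0.30 (RPS12) and 0.92 (RPS6), with a median of 0.59. RPS6 was 4677 FPKM in Clone 1 and 2468 in the GNF-2 population, and between 1932 and 3526 in the other 6. All 40 were higher in Clone 1 than in each other library except Clone 3, for which 39 were. Under quantile normalization 24 of the 40 were above and 13 below the GNF-2 population, with a median of 0.10. Under the median-ratio scaling all 40 were above it, with a median of 0.805. There 3 of the 40 were at least 2-fold higher, against 3.59% of all tested genes. RPS3A, outside the list, was 2526 against 1136 (1.15). Such genes have many processed copies in the genome that can share reads.

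Chaperones, which fold proteins and include the heat shock proteins, were higher as a group, with a median of 0.62 and 17 of 20 above the GNF-2 population. The 4 at least 2-fold higher, against 2.06% of all tested genes, were HSPA8, the constitutive HSP70 (745 against 239), DNAJB1, its co-chaperone (83.6 against 33.0), CHORDC1 (20.8 against 8.40) and HSPH1 (22.7 against 10.3). HSPA8 was also above every population in Clones 2, 3 and 4, at 527, 660 and 696. DNAJB1 was 198 in the vehicle population, well above all clones. The other clones shared the direction of the chaperone group. Above the GNF-2 population were 17 of 21 tested members in Clone 2 and 18 of 20 in Clone 4. In Clone 3, 15 of 21 were above the imatinib population. Chaperone genes higher in Clone 1 numbered 15 against Clone 2 and 10 against each of Clones 3 and 4. Oxidative phosphorylation genes had no called member of 26, against 10.4% of all tested genes, and a median of 0.07. That median became -0.09 under quantile normalization. Genes of the ATF4 and amino acid response had no called member of 24, against 10.4% of all tested genes, and a median of 0.28. Under the median-ratio scaling 3 of the 24 were at least 2-fold higher, against 3.59% of all tested genes. Under quantile normalization 1 was, against 3.3%.

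Mitosis genes were all below the GNF-2 population, 4 of 29 by at least 2-fold, against 8.34% of all tested genes, with a median of -0.67. The 4 were MKI67, the proliferation marker (5.73 against 24.3), the kinesins CENPE (3.94 against 15.2) and KIF23 (6.17 against 13.8), and KIF2C (18.7 against 38.5). CDK1 was 38.3 against 61.2 and CCNB1 32.3 against 54.9, neither reaching 2-fold. The vehicle population stood above Clone 1 for all 29 genes. Under the median-ratio scaling 2 of the 29 lay above the GNF-2 population, and 1 under quantile normalization. Under either scaling 2 of the 29 were at least 2-fold lower, against 6.13% (median ratio) and 5.79% (quantile) of all tested genes, so the count of called members was near the background there. Against Clone 4, only 5 of the 29 were lower in Clone 1. D cyclins and inhibitors of cyclin-dependent kinases differed both ways, with 6 of 11 above the GNF-2 population and a median of 0.12. At least 2-fold lower were 3 of the 11, against 8.34% of all tested genes, and none was at least 2-fold higher, against 2.06%. Under the median-ratio scaling 3 were lower and 3 higher, against 6.13% and 3.59% of all tested genes, and under quantile normalization the median was -0.03. CCND2, a D cyclin, was 0.238 against 26.7 (-4.49), CDKN2A, which encodes p16 and ARF, 2.87 against 16.5, and CDKN1C, which encodes p57, 1.12 against 6.13.

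Glycolysis and hypoxia genes were lower, 6 of 28 at least 2-fold, against 8.34% of all tested genes, with a median of -0.42. Under the median-ratio scaling 4 were lower and 2 higher, against 6.13% and 3.59% of all tested genes, and under quantile normalization 8 were lower, against 5.79%. ENO2, an enolase, was 23.9 FPKM in Clone 1 and 149 in the GNF-2 population (-2.60), against 498 in the vehicle, 329 in the imatinib and 325 in the nilotinib population. PFKFB4, which controls glycolytic flux, was 14.5 against 47.5, BNIP3, a mitophagy receptor, 151 against 371, P4HA1, a collagen prolyl hydroxylase, 101 against 217, and PDK1, which restrains pyruvate dehydrogenase, 38.2 against 81.6. CA9, the hypoxia-induced carbonic anhydrase, was listed at 0 in Clone 1 and 28.6 in the GNF-2 population. 2 abundant glycolytic enzymes differed little, with GAPDH at 7133 against 8662 and LDHA at 944 against 962.

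**Figure D4:**
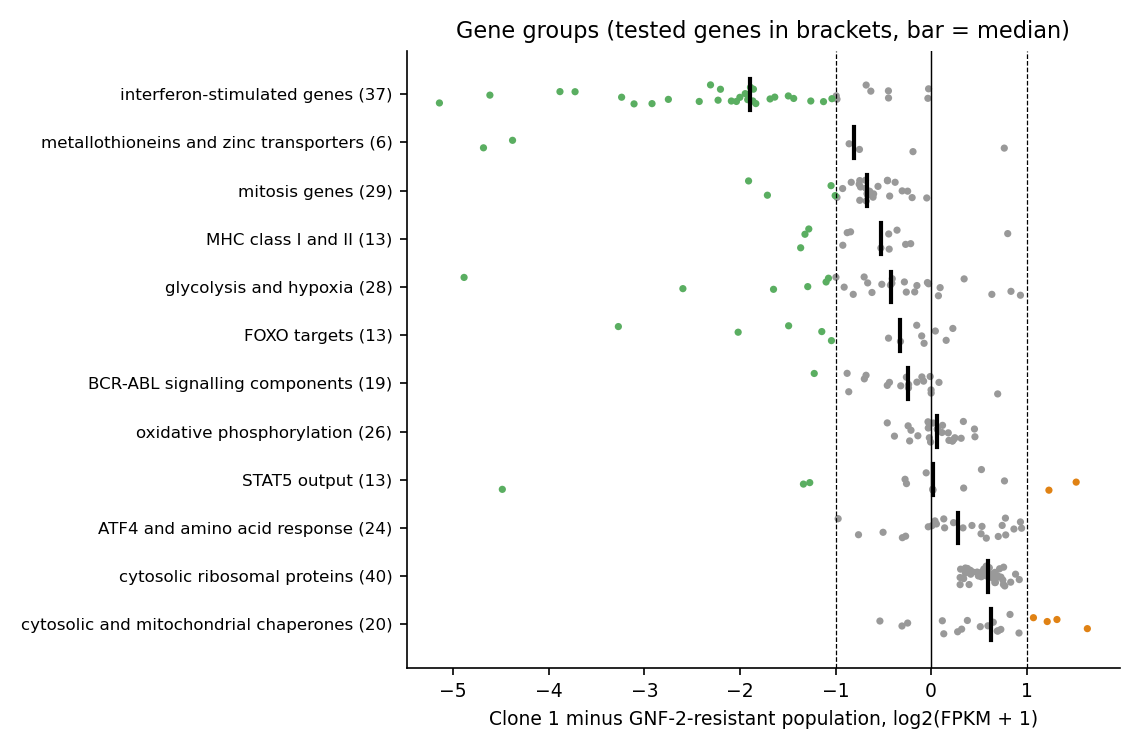
Difference between Clone 1 and the GNF-2-resistant population in log2(FPKM + 1) for each tested gene of 12 groups, with 1 point per gene, a bar at each median and dashed lines at 2-fold. The interferon-stimulated genes have the lowest median (-1.89), and the chaperones and ribosomal proteins the highest (0.62 and 0.59).

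Components of BCR-ABL signalling differed little, with a median of -0.24, which became -0.03 under the median-ratio scaling. At least 2-fold lower was 1 of 19, against 8.34% of all tested genes, and none was higher, against 2.06%. The lower gene was INPP5D, the inositol phosphatase SHIP1 (23.4 against 56.0). Among genes listed as STAT5 output, 2 of 13 were at least 2-fold higher, against 2.06% of all tested genes, and 3 lower, against 8.34%, with a median of 0.02. ID1 was 46.1 against 15.5 and SOCS2 185 against 78.4, while CCND2, SOCS1 (13.6 against 35.8) and DUSP6 (7.58 against 19.7) were lower. DUSP6 is also listed among the ERK feedback genes. CISH, a direct STAT5 target, was 54.4 against 53.7, PIM1 59.0 against 46.4 and MYC 283 against 343. In the BCL2 family, BCL2 and BID (56.4 against 26.5) were at least 2-fold higher of 14 tested genes, against 2.06% of all. None was at least 2-fold lower, against 8.34%. BCL2L1, which encodes BCL-XL, was 26.3 against 31.7.

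Surface and lineage genes included both directions. SIGLEC6 (2.93 against 32.1) and its neighbour SIGLEC12 (25.6 against 227), genes of the SIGLEC family, were lower. OSMR, the oncostatin M receptor (6.12 against 39.4), and CD44, the hyaluronan receptor (135 against 334), were lower too. HDC, which makes histamine, was 136 against 435, and CD68, a lysosomal glycoprotein of macrophages, 9.41 against 37.2. FCER1G, a signalling chain of Fc receptors, was 37.1 against 9.85 and CD79A, a chain of the B cell receptor, 98.9 against 30.8. Both GFI1B, a factor of erythroid and platelet lineages (49.3 against 176), and ID2 (1.48 against 5.68) were lower, while GFI1 (14.7 against 6.75) and ID3 (28.4 against 12.4) were higher. NRP2, a neuropilin, was 0.0529 against 28.7 (-4.82), and 0.00595 in Clone 2. MYCT1 was 0.19 against 30.1 (-4.71).

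The Clone 3 pair gave a comparison of a clone with a population of its kind of origin that shares no library with the Clone 1 pair. There, 1046 of 9408 genes were at least 2-fold apart (11.1%), 370 higher (3.93%) and 676 lower (7.19%). Of the called genes, 363 moved the same way in both pairs, 57 higher and 306 lower, which is 36.3% of the Clone 1 list and 34.7% of the Clone 3 list. Another 31 moved in opposite directions. Across the 9130 genes tested in both pairs, Pearson's r was 0.50 and Spearman's rho 0.51. Genes are not independent, and both pairs set a clone against a bulk population, so the values are descriptions. Genes lower in the Clone 1 pair had a median difference of -0.91 in the Clone 3 pair (677 genes), genes higher one of 0.65 (155 genes), and all tested genes one of -0.09. Shared lower genes included MT1X (-4.68 and -4.35), GOLGA8A (-4.26 and -3.68), PTPRU (-4.64 and -3.14) and IFI27 (-5.14 and -4.27). Shared higher genes included IGJ (5.11 and 1.93), S100A4 (2.28 and 1.77), GPR35 (2.29 and 2.13) and TFRC (1.37 and 1.42).

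**Figure D5:**
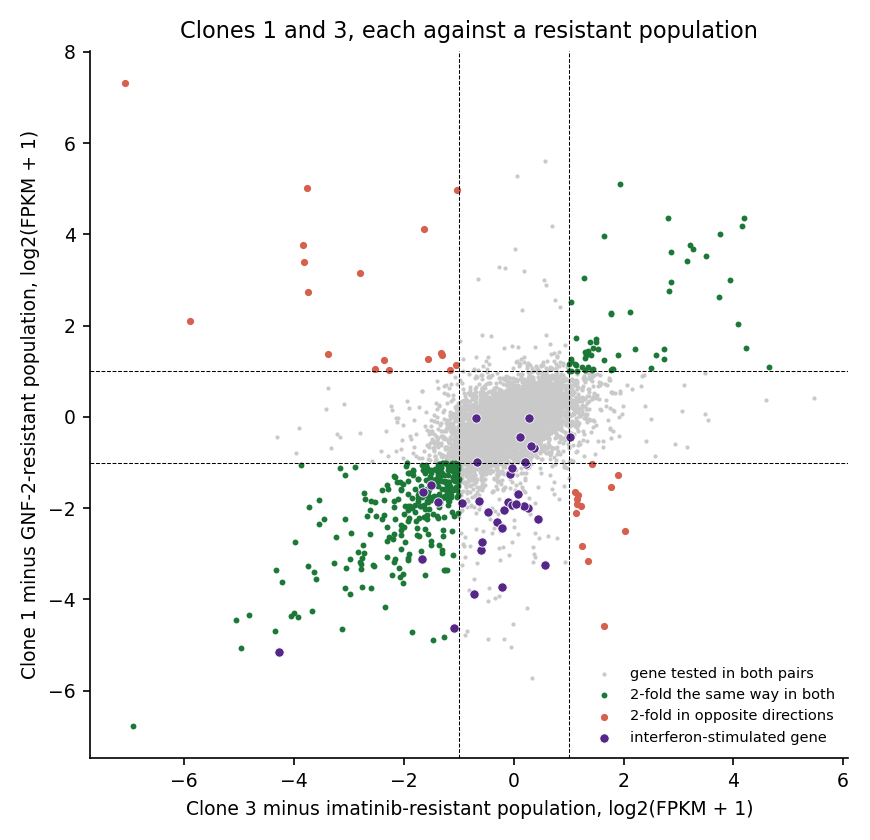
Difference of Clone 3 from the imatinib-resistant population (x axis) and of Clone 1 from the GNF-2-resistant population (y axis), both in log2(FPKM + 1), for the genes tested in both pairs, with dashed lines at 2-fold. Of the genes past 2-fold in both pairs, 363 lie in the corners of equal direction and 31 in the others, while most interferon-stimulated genes lie low on the y axis and near 0 on the x axis.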

How the data were processed

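RNA from 8 KCL-22 libraries, 1 per group, was sequenced. The authors deposited 1 table of FPKM per gene and library, with positions. TopHat 1.3, Cufflinks 1.3 and the build GRCh37 are listed in the submitters' processing notes. The table's header names no unit, which was taken from the tool and the values. Of 31402 entries, 70 with a missing value in at least 1 library were left out, and all 19 mitochondrial entries are at 0.

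Differences were computed as log2(FPKM + 1), with a pseudocount of 1, and a gene was called when it was at least 2-fold apart and the higher library reached an FPKM of 5. No test was run, since each group has 1 library. Transcript length and GC content came from GENCODE 29, for 97.4% of tested genes. Promoters came from RefSeq on GRCh38.p14, matched by symbol for 7746 tested genes. Depth was estimated from the FPKM steps of intronless genes 1000 to 8000 bases long. Computation used pandas 2.3.3 and numpy 2.4.6 under Python 3.11.15, scipy 1.17.1 for correlations, and matplotlib 3.10.9 for plots.

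The comparison, the 51 gene lists and the genes named were chosen with earlier results of these data known. Named genes were ABL1 and BCR, the 15 largest differences each way, the 10 most abundant called genes each way, the 10 each way in which Clone 1 lay furthest from all 7 others, called list members and up to 4 others per list, genes of neighbouring runs, genes called in both clone pairs (up to 10 each way the same way and up to 5 each way opposite) and up to 5 each way listed at 0. Outside this rule and after their values were seen, the list members B2M, HLA-B, HLA-C, BST2, IFITM1, IFITM3, IRF1, LY6E, IFNAR1, CDK1, CCNB1, GAPDH, LDHA, CISH, PIM1, MYC, BCL2L1 and RPS12 were named, and LENG8, GOLGA8B, RMRP, RPPH1, OGT, SRSF5, IFNAR2, IFNGR2, JAK1, TYK2, FGF23 and IFNB1 from outside the lists. Alternatives were other pseudocounts, FPKM floors, scalings and folds, and subsets of genes. Removal of the length and GC trend, a ratio without pseudocount and every alternative of the interferon count were chosen after seeing the data. Values of some single list members are not reported here.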

Additional observations from a re-analysis of the deposited data

Results flagged for a closer look

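Of the 31 genes at least 2-fold apart in opposite directions in the 2 pairs of a clone and a population, the 10 that the rule for named genes took are given. The difference between the pairs was not tested, with 1 library a group. Lower in Clone 1 than in the GNF-2 population and higher in Clone 3 than in the imatinib population were LOXL1, a lysyl oxidase (-4.59 and 1.64 on the log2 scale), WBP5 (-3.15 and 1.36), VGLL3, a cofactor of TEAD factors (-2.50 and 2.02), C19orf25 (-1.54 and 1.77) and DUSP6, an ERK phosphatase (-1.27 and 1.89). Higher in Clone 1 and lower in Clone 3 were RAB20 (1.14 and -1.05), C1orf186 (1.26 and -2.37), RGS2, a regulator of G protein signalling (1.26 and -1.55), TUBA8, an alpha tubulin (1.35 and -1.31), and TDRD9 (1.40 and -1.32). VGLL3 was 5.86 FPKM in Clone 1 and 37.8 in the GNF-2 population, against 322 in Clone 3 and 78.5 in the imatinib population.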

How the results depend on the processing

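No paired analysis was possible because each group has 1 library. The count of 999 genes in the Clone 1 pair became 574 with a pseudocount of 5, 1532 with an FPKM floor of 1 or none (which are equal, since a 2-fold difference on this scale needs an FPKM of 1), 392 with a floor of 20 and 309 at 4-fold. In the same order the 1046 genes of the Clone 3 pair became 549, 1409, 483 and 223, and the 363 shared genes 191, 548, 141 and 80. The 29 interferon-stimulated genes became 15 at 4-fold and lay between 21 and 31 under the other alternatives. No called gene that was named changed direction under the pseudocounts of 0.1 and 5 or the 2 scalings, but 59 of 224 fell short of 2-fold with a pseudocount of 5, 22 with the median ratio and 27 with quantile normalization. List medians changed sign for 13 of 49 lists with the median ratio and 9 with quantile normalization, and in neither for the interferon, mitosis, chaperone, ribosomal protein, glycolysis and MHC lists. Depth limits low genes, and with 1 library a side no spread between replicates is known.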

Other observations

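Genes outside the groups above also differed widely. FGF23, the phosphate hormone, was 9.66 FPKM in Clone 1 against 116, as well as 241 in the vehicle population and 8.13 in Clone 2, and was singled out after its values were seen. SLC2A5, the fructose transporter, was 4.4 against 74.2. A2M, the protease inhibitor alpha-2-macroglobulin, was 20.2 against 82.2 and as high as 199 in Clone 4. RCSD1 was 18.5 against 3.09, and GPRC5C, an orphan receptor, 37.2 against 5.66. HINT1, a histidine triad hydrolase, was 922 against 418 and no higher than 490.4 in any other library.

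Some values at exactly 0 stood beside high values elsewhere, and whether they are failed estimates was not tested. ROMO1, a mitochondrial membrane gene, was listed at 0 in the GNF-2 population and in Clones 2, 3 and 4, and at 159 in Clone 1. DDT, a relative of the cytokine MIF, was listed at 0 in Clone 1 and at 108 in the GNF-2 population, and was also at 0 in the vehicle population, the nilotinib population and Clone 3. NUDT3, a phosphohydrolase, was at 0 in Clone 1 alone and between 33.7 and 51.8 in the other 7 libraries.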
